A study of Mus musculus with 4 samples.

Results

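Imprinted miRNA outside the Dlk1-Dio3 domain were followed in small RNA libraries of cultured cortical neurons from wild type (WT) and Alzheimer model (TgAD) mouse embryos. They were taken by name from the count files as both arms of miR-335, miR-296, miR-298, miR-483 and miR-675, which gave 10 of the 1966 listed miRNA. Of these 10, 6 had enough reads to be tested, namely both arms of miR-335, miR-296 and miR-298. The series holds 2 libraries per genotype. TgAD mice (B6C3 strain) are transgenic for Swedish-mutant APP, a mouse and human hybrid, among other changes, with expression driven by the prion protein promoter. WT embryos are not transgenic. Cortex was taken at embryonic day 16.5 per the labels (day 16 in the study's methods), and the dissociated neurons were kept untreated for 5 days in serum-free medium. In the study's methods each embryo was cultured separately and genotyped afterwards, so the libraries of a genotype are different embryos.

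Imprinted genes are transcribed from only 1 parental chromosome, a choice set by DNA methylation at control regions in the germ line. miRNA made from such transcripts are cut from hairpins in introns, exons or long noncoding RNA of the imprinted unit, and each hairpin can give a 5p and a 3p arm. miR-335 is carried by Mest, miR-296 and miR-298 belong to the Nespas transcription unit of the Gnas locus, and miR-483 lies in Igf2, all units that are expressed from the paternal chromosome. miR-675 is cut from H19, a long noncoding RNA of the maternal chromosome. Among the functions described for them, miR-335-5p represses SOX4 and tenascin C, miR-296-5p acts in the growth factor response of endothelial cells, miR-298-5p represses BACE1, the protease that starts amyloid peptide production, and miR-675 represses Igf1r in the placenta. The libraries hold no allele counts, so parental origin was not measured.

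The mature sequences of the 6 tested miRNA are shown from RefSeq (GRCm38.p6), 5′ to 3′, because the seed (bases 2 to 8, in capitals) defines what an arm can pair with and because the arms differ widely in GC content.
mmu-miR-335-5p: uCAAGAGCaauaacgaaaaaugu
mmu-miR-335-3p: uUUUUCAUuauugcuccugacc
mmu-miR-296-5p: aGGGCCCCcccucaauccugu
mmu-miR-296-3p: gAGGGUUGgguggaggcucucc
mmu-miR-298-5p: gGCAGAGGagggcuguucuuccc
mmu-miR-298-3p: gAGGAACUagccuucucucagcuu
No 2 of these arms share a seed. None of the 10 seeds occurs in another mature mouse miRNA of the RefSeq table, which held 1675 of the listed names. Each of the 10 mature sequences lies at 1 locus and in no other hairpin of that table, so none of their reads would have several annotated hairpins to be assigned to. The GC content was 30.4% and 36.4% in the 5p and 3p arms of miR-335, against 66.7% and 68.2% in miR-296 and 65.2% and 50.0% in miR-298.

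In GRCm38 the miR-335 hairpin lies at chr6:30741299-30741396 on the plus strand. It is intronic in all 7 overlapping transcripts that GENCODE M21 gives for Mest, in intron 2 of 4 of them. The hairpins of miR-296 (chr2:174267047-174267125) and miR-298 (chr2:174267504-174267585) lie on the minus strand with 378 bases between them. GENCODE M21 places no other transcript over either of them, and its Nespas gene model ends 14.1 kb from miR-296 and 13.7 kb from miR-298 on the same strand. The miR-483 hairpin (chr7:142654924-142654996, minus strand) is intronic in all 7 overlapping Igf2 transcripts and in 1 of Gm49394. The miR-675 hairpin (chr7:142577064-142577147, minus strand) is exonic in 3 of the 4 H19 transcripts that span it.

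The deposited files do not agree on which library is which, and this bears on every comparison of genotypes. The counts per library are those of the 4 count files, which GEO ties to the samples and which are called WT 1, WT 2, TgAD 1 and TgAD 2 here. A second deposited table gives normalized values in columns WT_1, WT_2, TR_1 and TR_2, from which whole reads were recovered. For all 674 miRNA of that table (100%), the column WT_1 held the reads of the library labelled TgAD 1, WT_2 those of WT 1 and TR_1 those of TgAD 2. The column TR_2 held a library found in none of the count files, and the library WT 2 was in no column. The genotype named for TgAD 1 therefore differs between the files. By counts, TgAD 1 correlated better with TgAD 2 (Pearson r = 0.981 over the log2 counts of these 674 miRNA) than with the WT libraries (0.964 and 0.965), a description over miRNA that are not independent. The sample labels were followed, and the results are also given without TgAD 1 and with the column names of the table.

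Reads on miRNA numbered between 2070204 and 4811010 per library, with 849 to 936 miRNA at 1 read or more. Levels are given as CPM, counts-per-million after TMM scaling of the library sizes. A read covers a whole mature miRNA of 21 to 24 bases, so levels are not affected by length, but capture in the library can differ between sequences. Of the neuronal markers, miR-128-3p, miR-138-5p and miR-218-5p had 2237 reads or more in every library, while miR-124-3p had 1 to 7 reads and miR-9-5p 0 reads in each. The labelled cell type was thus only partly visible in the counts of its defining miRNA. miR-9-5p lies at 3 loci and miR-128-3p at 2, and how reads with several placements were counted is not given. The low counts are therefore not read as absence. Summed marker levels of other cell types were 718 to 903 CPM in WT and 757 to 829 CPM in TgAD for mesenchyme, 2.98 to 4.46 and 2.19 to 3.98 CPM for muscle, 18030 to 23288 and 14759 to 15933 CPM for glia, and 1311 to 1332 and 647 to 959 CPM for blood and myeloid cells. The glial sum was mostly miR-21a-5p, with miR-219a-5p and miR-338-3p at 0 reads. Neither miR-21a-5p (log2 fold change -0.46) nor miR-146a-5p (0.20) passed. The blood and myeloid sum was nearly all miR-451a, which was lower in TgAD neurons at the cutoffs given below (log2 fold change -0.72). miR-223-3p had 3 to 8 reads, higher in the TgAD libraries, and miR-142a-3p had 0. The liver and endothelial markers had 0 reads. miR-126a-3p (endothelial), miR-142a-3p and miR-338-3p each lie at 1 locus, yet had 0 reads. miR-142a-5p, the other arm of the miR-142a hairpin, had enough reads to be tested. These counts of 0 are therefore not read as absence of a cell type either. The summed neuronal markers were 21111 and 35018 CPM in WT and 86059 and 61977 CPM in TgAD neurons, mostly miR-128-3p. Only miR-128-3p was higher at the cutoffs given below (log2 fold change 1.49). miR-138-5p went the other way (-0.63) and miR-218-5p was at 0.35, and neither passed.

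The 3 detected hairpins differed in level. Both arms of miR-335 together made up 0.429% and 0.454% of the miRNA reads in WT and 0.437% and 0.320% in TgAD libraries. Those of miR-298 made up 0.121% and 0.131% in WT and 0.182% and 0.171% in TgAD, and those of miR-296 between 0.0533% and 0.0846%. By reads, miR-335-3p ranked 45 to 53 of the 1966 listed miRNA over the 4 libraries, and the lowest of the tested arms, miR-298-3p, ranked 311 to 337. In WT neurons the order was miR-335-3p, miR-335-5p, miR-298-5p, miR-296-3p, miR-296-5p and miR-298-3p, and no neighbours in that order overlapped between libraries. In TgAD neurons miR-335-5p overlapped both miR-335-3p and miR-298-5p, and the other neighbours did not overlap, as the plot of levels by library shows.

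**Figure D1:**
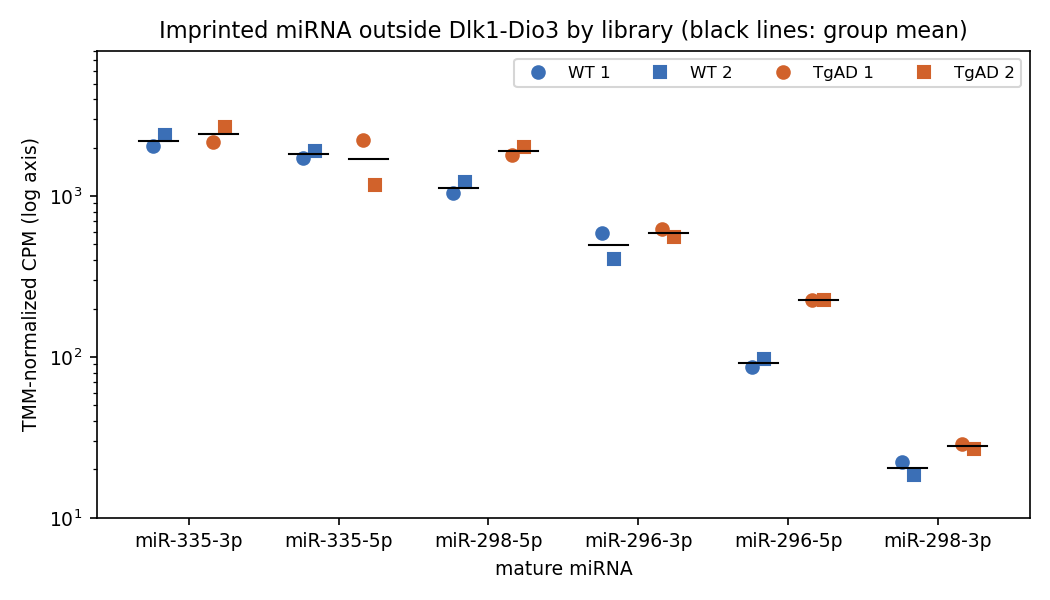
TMM-normalized CPM (log axis) of the 6 tested miRNA in each of the 2 WT and 2 TgAD libraries, with the group mean as a black line. For miR-296-5p, miR-298-5p and miR-298-3p both TgAD libraries lay above both WT libraries, and the TgAD libraries of miR-335-5p, at 2230 and 1164 CPM, lay on either side of the WT libraries.

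TgAD and WT neurons were compared to ask which miRNA differ in the Alzheimer model. A miRNA was called where its log2 fold change exceeded 0.6 in either direction and its adjusted p was below 0.1 (edgeR, BH over the 496 tested miRNA). By this rule 2 of the 6 tested imprinted miRNA differed, miR-296-5p and miR-298-5p, and both were higher in TgAD neurons. Over all tested miRNA, 33.1% were called, 15.7% as higher and 17.3% as lower. Counted in either direction, 2 of 6 was close to the background share, and counted as higher it was above it, a difference between lists that was not tested. The groups did not overlap in CPM for 3 of the 6, against 63.1% of all tested miRNA, and all 3 were higher in both TgAD libraries, against 30.6%. The median log2 fold change of the 6 was 0.35, beside 0.032 over all tested.

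miR-296-5p showed the largest difference among the 6. The WT libraries held 205 and 282 reads of mmu-miR-296-5p and the TgAD libraries 619 and 912, or 87.2 and 96.8 CPM against 225 and 227 CPM. Both TgAD libraries were well above both WT libraries, and the libraries of each genotype lay close together. The WT mean was 92.0 ± 6.79 CPM and the TgAD mean 226 ± 0.839 CPM (SD, n = 2 each). The log2 fold change was 1.30 (SE 0.202, adjusted p = 0.0104, edgeR), or 2.46-fold with a 95% interval of 1.75 to 3.44. Without TgAD 1 the log2 fold change was 1.21 (adjusted p = 0.0142 from edgeR). With the columns of the normalized table taken by name it was 0.45 (adjusted p = 0.792 from edgeR), and 0 of 480 miRNA were past the cutoffs in that fit.

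Its partner on the hairpin, miR-296-3p, was the more abundant arm and did not pass. Its reads numbered 1385 and 1185 in WT against 1714 and 2254 in TgAD libraries, or 589 and 407 CPM against 624 and 560 CPM. The genotypes overlapped, and the WT libraries stood farther apart than the TgAD libraries. The log2 fold change was 0.25 with a 95% interval of -0.32 to 0.82 (adjusted p = 0.479 from edgeR), and it was -0.013 with total counts as library size. It was 0.54 without WT 1 and 0.0074 without WT 2, and neither passed.

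mmu-miR-298-5p was the dominant arm of its hairpin, with 2449 and 3544 WT reads and 4932 and 8142 TgAD reads. Its levels were 1042 and 1217 CPM in WT and 1797 and 2024 CPM in TgAD libraries, which did not overlap. The WT mean was 1129 ± 124 CPM and the TgAD mean 1910 ± 161 CPM (SD, n = 2 each). The log2 fold change was 0.76 (SE 0.195, adjusted p = 0.0369, edgeR), or 1.69-fold with a 95% interval of 1.22 to 2.34. Without TgAD 1 it was 0.76 (adjusted p = 0.0403 from edgeR). The call was lost with total counts as library size, at 0.49 (adjusted p = 0.178 from edgeR), and without WT 1, at 0.65 (adjusted p = 0.170 from edgeR). With the columns of the normalized table by name it was 0.68 (adjusted p = 0.611 from edgeR).

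The minor arm mmu-miR-298-3p was counted 52 and 54 times in WT and 79 and 108 times in TgAD libraries. At 22.1 and 18.5 CPM in WT against 28.8 and 26.8 CPM in TgAD libraries the genotypes did not overlap, but at a log2 fold change of 0.45 with an SE of 0.267 the arm was not called (adjusted p = 0.282, edgeR). Its 95% interval ran from -0.19 to 1.10 and so held both no difference and a fold change like that of the 5p arm.

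Neither arm of miR-335 passed. The WT libraries held 4809 and 6936 reads of mmu-miR-335-3p and the TgAD libraries 5947 and 10733. Its levels of 2046 and 2381 CPM in WT and 2166 and 2668 CPM in TgAD neurons overlapped, with a log2 fold change of 0.13 and a 95% interval of -0.37 to 0.63 (adjusted p = 0.693 from edgeR). For mmu-miR-335-5p the WT libraries held 4067 and 5548 reads, TgAD 1 held 6121 and TgAD 2 held 4685. Its WT libraries were close, at 1730 and 1905 CPM, while TgAD 1 was above them at 2230 CPM and TgAD 2 below them at 1164 CPM. The log2 fold change was -0.099 with a 95% interval of -0.86 to 0.67 (adjusted p = 0.844 from edgeR), and the TgAD libraries pulled in opposite directions. It was -0.73 without TgAD 1, which passed the cutoffs (adjusted p = 0.0481 from edgeR), and 0.30 without TgAD 2 (adjusted p = 0.378 from edgeR). With the columns of the normalized table by name it was -1.16, which was not called (adjusted p = 0.443 from edgeR).

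**Figure D2:**
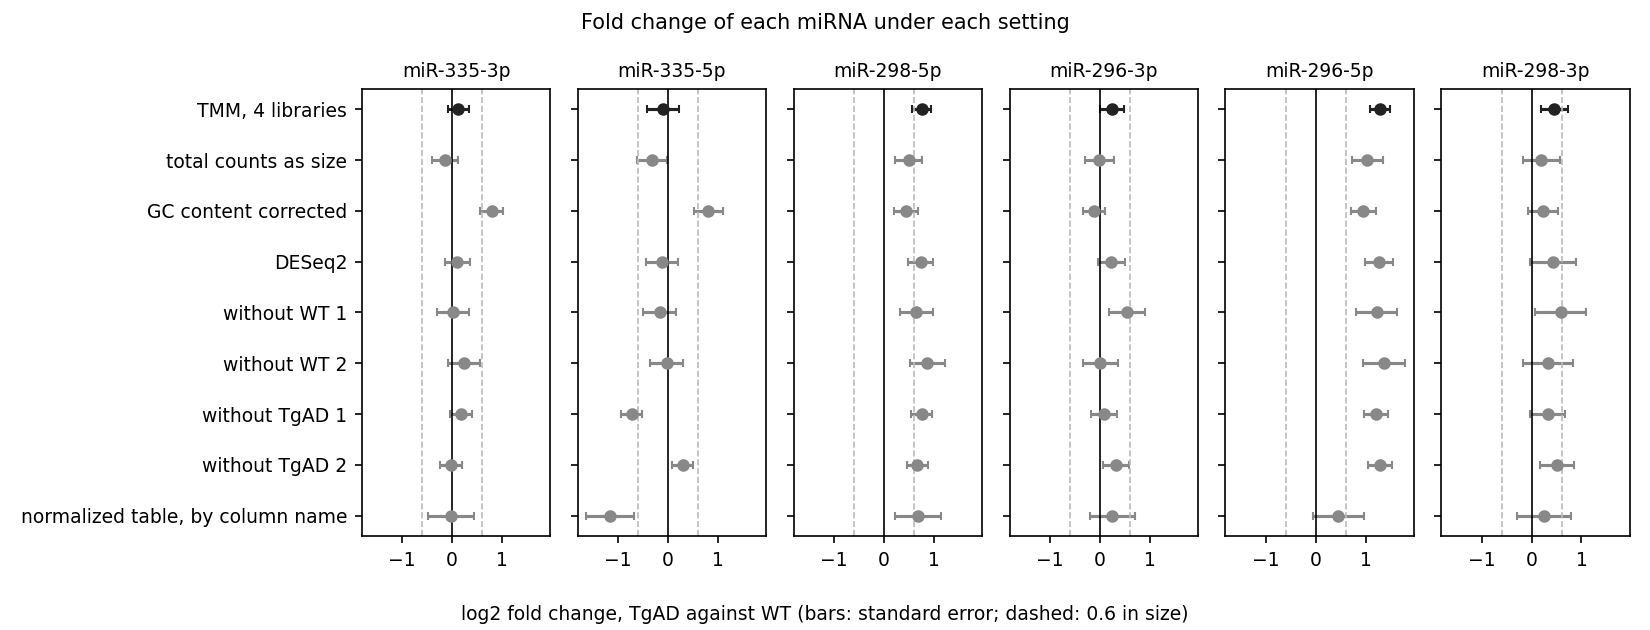
Log2 fold change of TgAD against WT for each of the 6 tested miRNA (x axis, with the standard error as a bar and dashed lines at 0.6 in size) under the settings named on the y axis, with the values over 4 libraries in black. miR-296-5p stayed between 0.95 and 1.37 in the fits of the count files and was 0.45 with the column names of the normalized table, while miR-335-5p ranged from -0.73 to 0.81 in the fits of the count files.

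The 4 arms of miR-483 and miR-675 were not tested. The arms of miR-675 and miR-483-5p had 0 reads in all libraries, of 12392338 reads in total, which allows a level of up to 0.242 CPM over the 4 libraries taken as 1. miR-483-3p had 1 read, in TgAD 2, with an exact Poisson 95% interval of 0.0253 to 5.57 reads. At 3 reads per library the limit was 0.746 to 1.28 CPM, so the products of the Igf2 and H19 hairpins were not detectable at this depth. Of the listed miRNA, 835 had 0 reads in all 4 libraries, miR-9-5p among them. The limits cover counting error only.

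Both arms of a hairpin are cut from the same precursor, and their ratio within a library does not depend on how libraries are scaled. It was tested with limma on the log2 ratio of 5p to 3p reads for the 138 hairpins with both arms tested. For miR-296 the hairpin is shown with both arms in capitals.
miR-296 hairpin: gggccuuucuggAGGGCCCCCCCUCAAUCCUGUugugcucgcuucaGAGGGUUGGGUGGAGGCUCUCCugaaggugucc
Its 5p arm had 0.148 and 0.238 reads per 3p read in WT and 0.361 and 0.405 in TgAD libraries, so that the 3p arm dominated in every library and less so in TgAD neurons. The log2 ratio was -2.41 ± 0.484 in WT and -1.39 ± 0.116 in TgAD neurons (SD, n = 2 each), a difference of 1.02 (SE 0.351, adjusted p = 0.0701 from limma). It passed the threshold of 0.1, as did 40.6% of the 138 hairpins, 16.7% with a higher ratio in TgAD neurons, and its genotypes did not overlap, as in 70.3% of the hairpins. The difference was 0.68 without WT 1 (adjusted p = 0.466 from limma), 1.37 without WT 2 (adjusted p = 0.102) and 0.94 without TgAD 2 (adjusted p = 0.151), and none of these passed. Without TgAD 1 it was 1.11 (adjusted p = 0.0617 from limma).

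In the other hairpins no change of the ratio was detected. miR-298 had 46.7 and 65.04 5p reads per 3p read in WT and 62.0 and 75.05 in TgAD libraries, a log2 difference of 0.31 (SE 0.329, adjusted p = 0.528 from limma), which was 0.069 without WT 1 and 0.55 without WT 2. miR-335 had nearly balanced arms in WT and TgAD 1, with 0.846 and 0.800 5p reads per 3p read in WT and 1.03 in TgAD 1. In TgAD 2 the 3p arm dominated, with a ratio of 0.437. The miR-335 log2 difference of -0.30 (SE 0.457, adjusted p = 0.650 from limma) became 0.32 without TgAD 2.

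**Figure D3:**
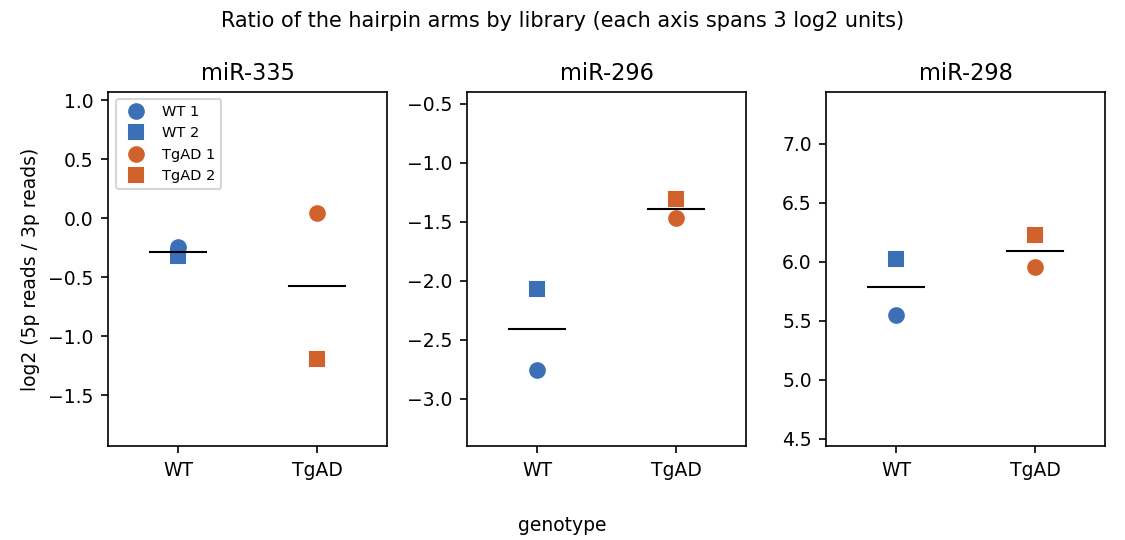
Log2 ratio of 5p to 3p reads of the miR-335, miR-296 and miR-298 hairpins (y axis, 3 log2 units in each panel) in the 2 WT and 2 TgAD libraries, with group means as black lines. In miR-296 both TgAD libraries lay above both WT libraries, while in miR-335 the TgAD libraries, at ratios of 1.03 and 0.437, lay on either side of the WT libraries.

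miR-296 and miR-298 are neighbours, and their arms were also set against each other. miR-298-5p had 11.9 and 12.5 reads per read of miR-296-5p in WT and 7.96 and 8.92 in TgAD libraries, a log2 difference of -0.54. The genotypes did not overlap, but 2 against 2 libraries cannot go below p = 0.333 in a two-sided exact permutation test, which was also the p obtained. For the 3p arms the log2 difference was 0.18 with the same exact p of 0.333, and it was 0.039 without WT 1 and 0.32 without WT 2. In the library of column TR_2, which is in no count file, the 5p ratio was 12.5, within the WT range and above both TgAD libraries.

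Fold changes moved with GC content across the tested miRNA. Over the 441 tested miRNA with a known sequence (88.9%), GC content and log2 fold change had a Pearson r of 0.35 and a Spearman rho of 0.42, given as a description over miRNA from the same libraries. Of the 31 with a GC content of 65% or more, 7 were higher and 0 lower at the cutoffs, whereas of the 75 under 40%, 2 were higher and 32 lower. Over all 496 tested miRNA, 15.7% were higher and 17.3% lower. miR-296-5p, miR-296-3p and miR-298-5p belong to the first set and both arms of miR-335 to the second. miR-296-5p and miR-298-5p are among the 7 higher ones of the first set, which is therefore not independent of them. In an added fit, decided on with the data in hand, each library was corrected for GC content, and miR-296-5p kept its call at 0.95 (adjusted p = 0.0296 from edgeR). In that fit miR-298-5p was 0.45 and no longer passed (adjusted p = 0.219 from edgeR), and miR-335-3p and miR-335-5p were 0.80 and 0.81 and passed (adjusted p = 0.0395 and 0.0689 from edgeR). The order of the fold changes among the imprinted miRNA thus rested on this choice. The part of the marker levels above in these results was not tested, and in bulk samples more cells of a type and more RNA per cell cannot be told apart.

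**Figure D4:**
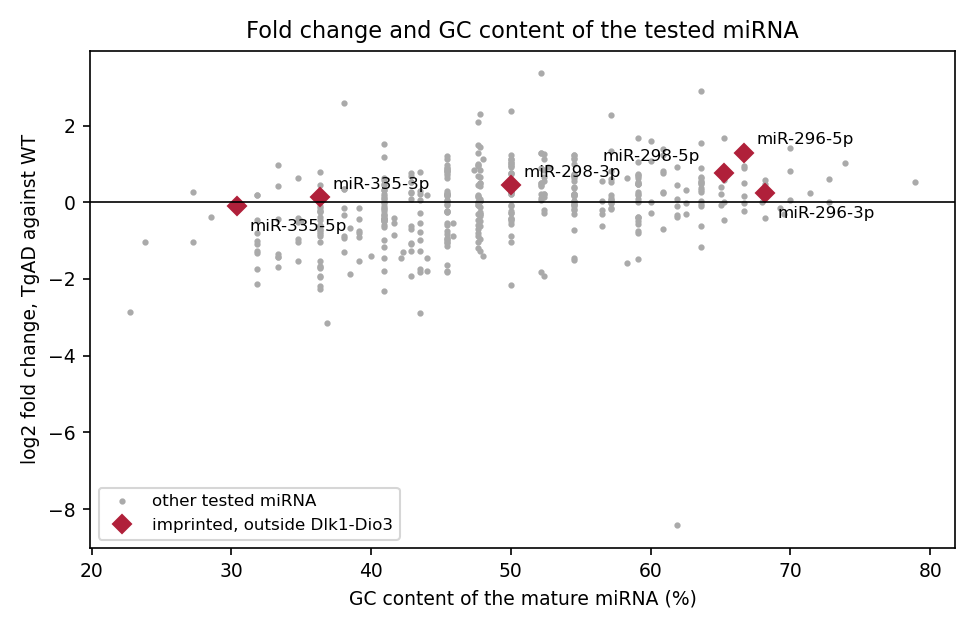
Log2 fold change of TgAD against WT (y axis) against the GC content of the mature miRNA (x axis, %) for the 441 tested miRNA with a known sequence, with the 6 imprinted miRNA outside Dlk1-Dio3 as diamonds. miR-296-5p and miR-298-5p lay above 65% GC, where 0 miRNA were lower at the cutoffs, and the miR-335 arms lay near 0 below 40% GC, where 32 of 75 were lower.

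miRNA of other imprinted regions were measured in the same libraries. Of the 111 listed miRNA of the Dlk1-Dio3 domain on chromosome 12, 59 were tested, and 10 were higher and 12 lower at the same cutoffs, with a median log2 fold change of 0.0014. In 2 other regions, of miR-184 near Rasgrf1 and of the miR-344 family near Magel2 and Peg12, 6 of 21 listed miRNA were tested. miR-344f-3p was higher, by 0.81 on the log2 scale (adjusted p = 0.0525, edgeR). miR-184-3p was lower, at -2.16 (adjusted p = 0.0104 from edgeR), and the other 4, all of the miR-344 family, did not pass. Whether the 6 differed from these lists was not tested.

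Likeness over the 4 libraries was taken as the root mean square distance in centred log2 CPM, as a description over 4 points. Closest to miR-296-5p were miR-674-3p, miR-377-5p and miR-6988-3p, at 0.082 to 0.12, and its cluster mate miR-298-5p ranked 35 of 495 at 0.27. Its own 3p arm ranked 168. Closest to miR-298-5p were miR-369-5p, miR-504-5p and miR-139-5p, at 0.012 to 0.064. Of the 3p arms of the cluster, miR-298-3p ranked 7 from miR-296-3p, and miR-296-3p ranked 23 from miR-298-3p. Closest to miR-296-3p were miR-125b-2-3p, miR-344c-3p and miR-324-3p, and closest to miR-298-3p were let-7e-3p, miR-3093-3p and miR-125b-1-3p. miR-335-3p was closest to miR-668-3p, miR-541-5p and miR-702-3p. miR-335-5p was closest to miR-194-5p, miR-130b-3p and miR-664-5p, and the 3p arm of its own hairpin ranked 193.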

How the data were processed

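The deposited counts are whole reads per mature miRNA, 1 file per library, without normalization. The authors received reads with adapters already removed by the sequencing provider, aligned them to GRCm38 (Bowtie2, no mismatch allowed) and counted against miRBase annotation by HTSeq-count. How reads with several placements were counted is not given in the sources used here. The deposited table of normalized values is a signal, counts divided by 1 factor per library, with 100% of values whole multiples of 1 read (tolerance 0.01 reads). Its 2 TR columns were taken as TgAD, the only group besides WT.

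Counts were analyzed with edgeR 4.0.16 and limma 3.58.1 in R 4.3.3. The filterByExpr rule kept 496 miRNA, libraries were scaled by TMM, and genotype was the only factor of the quasi-likelihood test. Standard errors are the log2 fold change divided by the square root of F. p values were BH-adjusted over all tested miRNA. Arm ratios, with 0.5 added to both arms, were fitted with limma. p values rest on the spread between 2 embryos per genotype, with variances moderated over all tested miRNA or hairpins (6.38 degrees of freedom in the edgeR fit). With a library left out, 1 genotype had a single library and no spread of its own, which limits the p values of those fits.

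The alternatives were RLE scaling, total counts, no filter, at least 10 reads per library, DESeq2 1.42.0, the robust option, a replicate block, the normalized table and each library left out. A GC content correction (loess, span 0.75) and the leaving out of libraries for the cluster ratio were added after the data were seen. Members, lists and tests were chosen with earlier results of these data known. The rule named all 10 imprinted miRNA, the 3 closest to each tested one, miRNA of the same seed, and the other imprinted regions. Scripts were tested on simulated data. Part of the TgAD genotype is not reported here. Sequences are from RefSeq, and gene models from GENCODE M21.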

Additional observations from a re-analysis of the deposited data

Results flagged for a closer look

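The column TR_2 of the normalized table, 1926952 recovered reads, equals none of the count files, so its library entered no comparison of the count files. It held 2 imprinted miRNA above both WT libraries. Values here are CPM on the total of miRNA reads, without TMM scaling. miR-296-5p stood at 138 CPM, against 99.0 and 102 in the WT and 224 and 190 in the TgAD libraries. miR-298-5p stood at 1718 CPM, against 1183 and 1288 in the WT and 1788 and 1692 in the TgAD libraries. miR-335-5p was at 418 and miR-335-3p at 1033 CPM in this column, below all 4 count libraries, and its 5p to 3p ratio of 0.405 was near that of TgAD 2. The miR-296 ratio of 5p to 3p, 0.226, and the ratio of miR-298-5p to miR-296-5p, 12.5, lay within the WT range. In log2 counts the column correlated with TgAD 1 and TgAD 2 at a Pearson r of 0.966 and 0.969, and with WT 1 and WT 2 at 0.940 and 0.937, a description over miRNA that are not independent.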

How the results depend on the processing

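Of the 6 tested imprinted miRNA, 2 were called, 1 with library totals in place of TMM, 0 with the normalized table by column name, and between 1 and 3 with a library left out. With total counts the median log2 fold change of all miRNA moved from 0.032 to -0.23 and the calls from 78 higher and 86 lower to 43 and 122. miR-335-3p was then -0.14, miR-296-3p -0.013 and miR-298-5p 0.49. With the GC content correction miR-335-5p became 0.81, miR-335-3p 0.80, miR-296-3p -0.11 and miR-298-5p 0.45. With the normalized table by column name, the WT group held the libraries TgAD 1 and WT 1. The TgAD group held TgAD 2 and the library of TR_2, so the groups were not those of the sample labels. In that fit miR-335-3p was -0.018, miR-296-5p 0.45 and miR-298-5p 0.68. The cause of the differences between settings was not tested. With a library left out, the log2 fold change ran from -0.73 to 0.30 for miR-335-5p, from -0.030 to 0.24 for miR-335-3p, from 1.21 to 1.37 for miR-296-5p, from 0.0074 to 0.54 for miR-296-3p and from 0.65 to 0.87 for miR-298-5p, and the log2 arm ratio difference from 0.68 to 1.37 for miR-296, from 0.069 to 0.55 for miR-298 and from -0.91 to 0.32 for miR-335, with 0 to 1 of the 3 hairpins past the threshold. The replicate block gave 1.30 for miR-296-5p and 0.76 for miR-298-5p, and 188 calls in all. Whether libraries of the same number were paired is not given in the sources used here. The r of deviations was 0.216 for both numbers, which with 2 libraries per genotype is the same value by construction. With precision weights 34 hairpins passed, against 56. miR-298-3p kept its direction and was never called in all 13 alternatives. With 2 libraries per genotype, intervals span about a log2 unit or more.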
